A study of Mus musculus with 7 samples.

Results

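The hepatocyte transcripts described here are 37 genes for serum proteins, apolipoproteins, coagulation factors and liver-cell regulators, measured as RNA in the lineage-negative fraction of E14.5 mouse fetal liver. They were chosen by name from the 35976 symbols of the gene count table, and all 37 had a row. Lineage-negative cells are what remains after magnetic removal of cells that carry markers of mature blood lineages, so the fraction is meant to hold blood stem and progenitor cells. The 4 knockout libraries carried Vav1-iCre with Brd9fl/fl, and the 3 control libraries carried Brd9fl/fl alone. All embryos were C57BL/6 and CD45.2(+), and both groups shared the loxP-flanked Brd9 alleles. The Vav1 promoter drives the recombinase in blood cells, and every knockout library and no control had it, so effects of the recombinase and of Brd9 loss cannot be told apart. The labels do not say whether a library came from a single embryo or from a pool, so the spread between libraries may be partly technical. In bulk RNA, fewer cells of a type and less RNA per cell cannot be told apart.

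The fetal liver is at this stage both a forming liver and the main site of blood formation. Its parenchymal cells, hepatoblasts and young hepatocytes, secrete albumin, alpha-fetoprotein, transferrin, apolipoproteins and clotting factors, under regulators such as HNF4, HNF1, FOXA and C/EBP factors. Blood progenitors lie against these cells, and the column step here selected against blood lineage markers, which hepatocytes do not carry. Whether the transcripts came from whole hepatocytes in the fraction was not tested.

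Total counts ran from 18748885 to 21861876 in the knockout libraries and from 21831430 to 23571878 in the controls. Brd9 had 8.57, 11.9, 13.2 and 12.2 CPM (counts scaled by library size) in the knockouts, against 30.6, 32.2 and 36.5 CPM in the controls, so the groups were apart in the direction their labels state. Its log2 fold change was -1.53 (SE 0.15; edgeR, adjusted p = 0.0037). All 16 listed stem and progenitor genes passed the filter on low counts, and together they took 0.132% to 0.172% of counts in the knockouts and 0.163% to 0.211% in the controls. Over all 14679 genes tested, 82 were called at an adjusted p under 0.05 (0.559%), of which 80 were lower.

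Promoter sequences are shown for 4 members on which the comparisons below turn: the albumin and alpha-fetoprotein pair, neighbours on chromosome 5, and a pair of fibrinogen chain genes that are neighbours on chromosome 3. Each run is the 150 bases before the annotated start, read 5′ to 3′ on the gene's own strand, from RefSeq on GRCm38.p6. Capitals mark exact matches on either strand to the HNF1 core GTTAAT, the HNF4 core CAAAGTC or CAAAGGT, the FOXA core TGTTTAC or TGTTTGC, the C/EBP core TTGCGCA or TTGCAAT, and the TATA box TATAAA. The Alb stretch is chr5:90460720-90460869 on the plus strand, the Afp stretch chr5:90490564-90490713 on the plus strand, the Fgb stretch chr3:83049864-83050013 on the minus strand and the Fga stretch chr3:83026003-83026152 on the plus strand.
Alb: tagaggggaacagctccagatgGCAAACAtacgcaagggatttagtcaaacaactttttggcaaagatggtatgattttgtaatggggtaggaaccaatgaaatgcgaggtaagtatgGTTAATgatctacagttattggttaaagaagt
Afp: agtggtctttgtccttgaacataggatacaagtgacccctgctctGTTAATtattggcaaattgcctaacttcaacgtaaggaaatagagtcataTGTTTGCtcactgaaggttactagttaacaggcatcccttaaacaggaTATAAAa
Fgb: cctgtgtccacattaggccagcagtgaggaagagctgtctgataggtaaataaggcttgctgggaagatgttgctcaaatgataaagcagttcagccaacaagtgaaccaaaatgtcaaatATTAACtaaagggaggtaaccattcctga
Fga: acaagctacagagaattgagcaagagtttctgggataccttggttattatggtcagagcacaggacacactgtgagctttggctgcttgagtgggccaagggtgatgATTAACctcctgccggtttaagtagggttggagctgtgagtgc

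Of the 37 members, 32 had a promoter window of 250 bases before to 50 bases after an annotated start. Some genes have several such windows, and a gene was counted if any of them matched. The HNF1 core was in 12 of the 32 (37.5%), against 8.24% of the 27025 genes with such a window. The FOXA core was in 13 (40.6%), against 9.47%, and the HNF4 core in 6 (18.8%), against 9.44%. The similar gene copies Serpina1a, Serpina1b and Serpina1c are among the 12 with the HNF1 core and the 13 with the FOXA core. The TATA box letters TATAAA, at any place in the window and on either strand, were in 10 (31.2%), against 15.7%. The C/EBP core was in 1, the fibrinogen gamma chain gene Fgg (3.12%), against 4.82%. In the sequences shown, no 2 motifs overlapped. The HNF1 core began 32 bases before the start in Alb, 105 in Afp, 29 in Fgb and 43 in Fga, where the last 2 matches were on the opposite strand. A match is a string of letters, and binding was not measured here.

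Hepatocyte transcripts made up a few percent of the RNA of this blood progenitor fraction, and how much varied between libraries of the same genotype. The 37 members took 2.78%, 1.94%, 1.68% and 3.16% of all counts in knockout replicates 1 to 4, against 1.92%, 1.44% and 2.43% in control replicates 1 to 3. Knockout replicates 4 and 1 were the highest, control replicate 3 came next, and the groups overlapped. The mean was 2.39% ± 0.69 in the knockouts (SD, n = 4) and 1.93% ± 0.50 in the controls (SD, n = 3), a ratio of 1.24. Across all 7 libraries the highest share was 2.19 times the lowest. Within groups the highest was 1.88 times the lowest in the knockouts and 1.69 times in the controls. The exact binomial interval of a single library was far narrower than these spreads, for example 3.15% to 3.17% in knockout replicate 4. Those intervals cover counting error only. Leaving out single libraries moved the log2 ratio of the group means between 0.13, without control replicate 2, and 0.51, without control replicate 3, with 0.31 over all libraries.

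**Figure D1:**
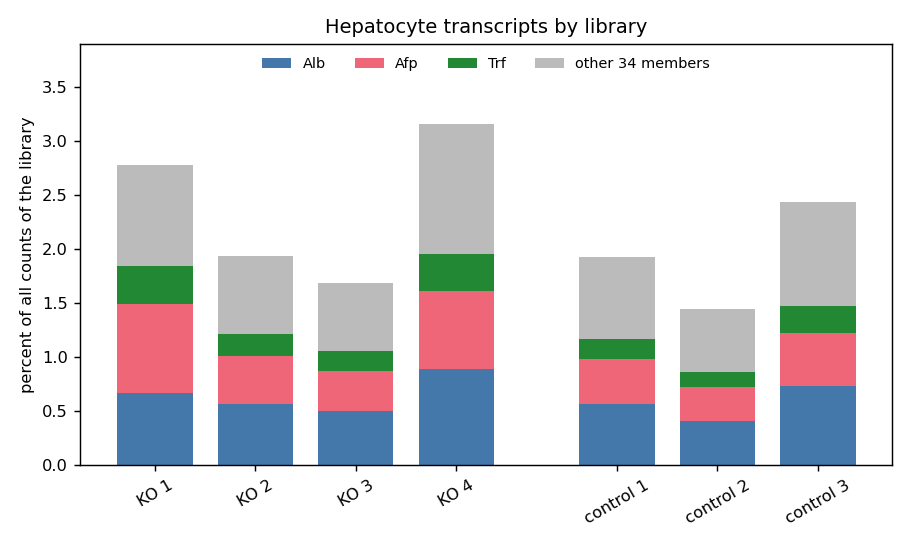
Summed counts of the 37 hepatocyte genes as a percent of all counts in each library (bars, 1 per library; KO, knockout), divided into Alb, Afp, Trf and the other 34 members. Knockout replicates 4 (3.16%) and 1 (2.78%) stand highest and control replicate 2 (1.44%) lowest, and the groups overlap.

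The sum was carried by a few genes. Albumin, the main plasma protein, held 28.3% of the member counts over all libraries, alpha-fetoprotein, its fetal relative, 23.1%, and Trf, the iron carrier transferrin, 10.7%. Per length, in TPM (counts divided by transcript length and scaled to the same sum in each library) from the annotated main transcript, the order was Alb (6253 TPM over all libraries), Afp (5100 TPM), Trf (1886 TPM), Apoa2 (1583 TPM) and Apoa1 (1487 TPM). At the other end stood Foxa3 (11.1 TPM) and Fetub (1.43 TPM), below every other tested member. Apoa4, an apolipoprotein of the intestine and of the later liver, had 0, 2, 1 and 0 counts in the knockouts and 0, 0 and 2 in the controls, and was the only member that did not pass the filter on low counts.

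None of the 36 tested members was called changed by edgeR's quasi-likelihood test, where 0.559% of all genes were called (0.0136% higher and 0.545% lower). None of them had an unadjusted p under 0.05 in that fit (10.9% of all genes) and none had groups that did not overlap (11.2% of all genes). In DESeq2, Afp, Apom and Trf had unadjusted p of 0.034, 0.035 and 0.044 (adjusted p of 0.39, 0.40 and 0.43). Without knockout replicate 3, edgeR gave 6 members an unadjusted p under 0.05 and called 0 members, with 120 calls over all genes. Leaving out any other single library gave 0 or 1 such member. DESeq2 also called 0 of the 36, against 2.68% of all genes, and the authors' deposited table has 0 members at an adjusted p under 0.05, against 2.19% of its genes. The fitted log2 fold changes, knockout over control, ran from -0.24 to 0.57 with a median of 0.21, beside 0.01 over all genes tested. Of the 36, 33 were above 0, as were 52.4% of all genes. That direction rested on single libraries: without control replicate 2, 18 of 36 were above 0 and the median was 6.6e-04, and without knockout replicate 4, 20 of 36 were above 0 and the median was 0.028. Without control replicate 3 all 36 were above 0, with a median of 0.44.

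The members varied more between libraries of the same group than most genes did. The within-group SD of log2 CPM had a median of 0.42 over the 36 members and 0.19 over all genes tested, and each of the 36 lay above that all-gene median. The 95% interval of a member's log2 fold change reached a median of 0.54 to either side, against 0.33 over all genes. The test therefore bounded the differences only loosely. For albumin the interval of the fold ran from 0.80 to 1.66, and for alpha-fetoprotein from 0.95 to 2.26.

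**Figure D2:**
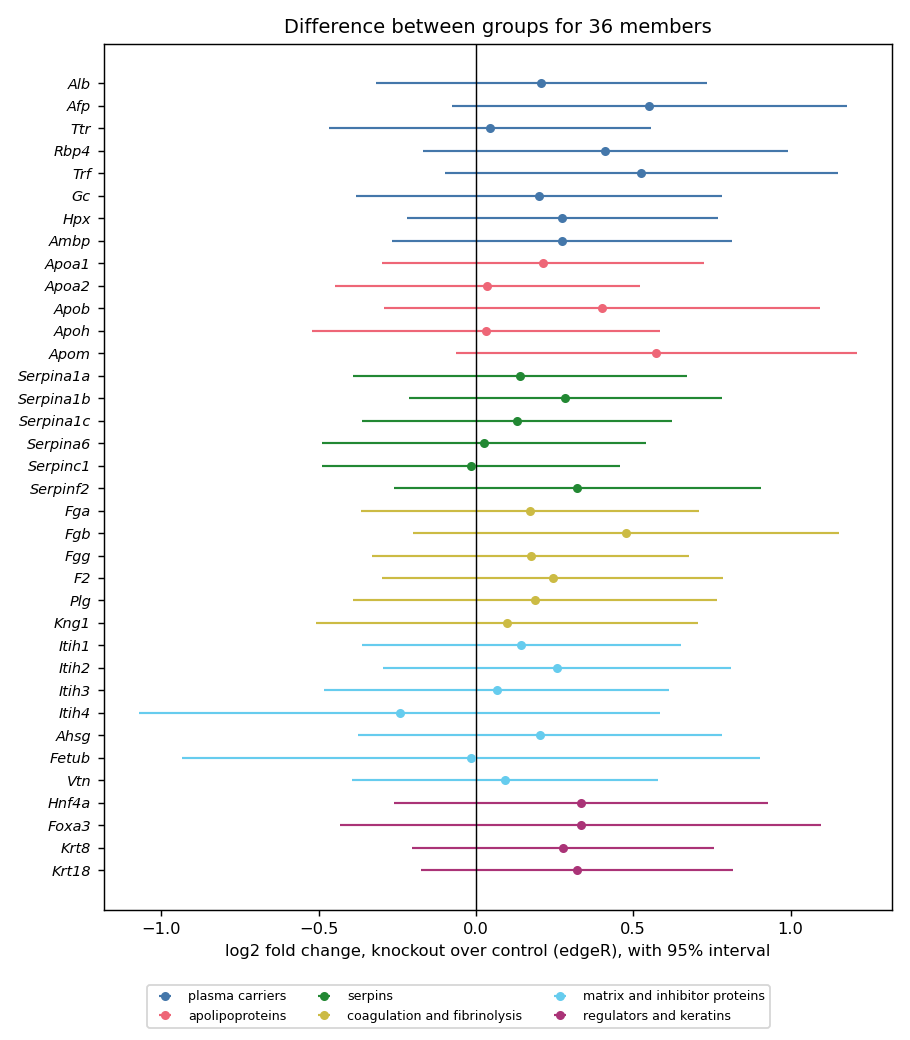
Log2 fold change, knockout over control, of the 36 tested members (points), with 95% intervals (lines) from edgeR's quasi-likelihood fit of 4 knockout and 3 control libraries, coloured by role. Each interval includes 0, and the points run from -0.24 (Itih4) to 0.57 (Apom).

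Plasma carriers, which bind hormones, vitamins, iron and haem in the blood, were 8 of the members, with log2 fold changes from 0.04 to 0.55 and no call. Albumin had 6851, 5560, 5128 and 8765 CPM in the knockouts and 5729, 3966 and 7388 CPM in the controls. The libraries interleaved, with knockout replicate 4 highest and control replicate 2 lowest, and the log2 fold change was 0.21 (SE 0.23, adjusted p = 0.78). Alpha-fetoprotein had 8384, 4391, 3808 and 7174 CPM in the knockouts and 4204, 3065 and 4896 CPM in the controls. Knockout replicates 1 and 4 stood above every control and the other knockouts lay within the control range, and the fitted log2 difference was 0.55 (SE 0.28, adjusted p = 0.53). Transferrin followed the same order of libraries at the top, with 3696, 1997, 1839 and 3356 CPM in the knockouts and 1795, 1402 and 2478 CPM in the controls. Its log2 fold change was 0.53 (SE 0.28, adjusted p = 0.56).

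Ttr, transthyretin, which carries thyroid hormone and the retinol-binding protein, had 465, 434, 441 and 684 CPM in the knockouts and 489, 335 and 648 CPM in the controls. Knockout replicate 1, the highest library for Afp and Trf, was the fourth of 7 here, and the log2 fold change was 0.04 (SE 0.23). Rbp4, the retinol-binding protein itself, had 532, 315, 254 and 505 CPM in the knockouts and 318, 233 and 355 CPM in the controls. There knockout replicates 1 and 4 stood above every control, with a log2 fold change of 0.41 (SE 0.26). Gc, the vitamin D carrier, Hpx, which binds haem, and Ambp, the precursor of alpha-1-microglobulin and bikunin, had log2 fold changes of 0.20, 0.28 and 0.27.

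Among the 5 tested apolipoproteins, the protein parts of blood lipid particles, log2 fold changes ran from 0.03 to 0.57. Apom, a carrier of sphingosine-1-phosphate on high-density lipoprotein, had the highest of all members, 0.57 (SE 0.28, adjusted p = 0.52). It had 155, 78.3, 67.5 and 137 CPM in the knockouts and 74.4, 57.8 and 88.1 CPM in the controls, so knockout replicates 1 and 4 were again above every control. The authors' deposited table gives Apom and Afp, and no other member, an unadjusted p under 0.05, with adjusted values of 0.432 and 0.430. Apob, the large structural protein of low-density lipoprotein, had 452, 318, 193 and 588 CPM in the knockouts and 279, 265 and 337 CPM in the controls. Its knockouts held both the highest and the lowest library. Apob has the longest transcript of the members, 13934 bases, and in knockout replicate 3, its lowest library, longer transcripts were lower in general: over 10191 genes the deviation of that library from the mean of the other 6 had a Spearman correlation of -0.59 with transcript length, and over 35 members of -0.51. In the other 6 libraries the correlation over all genes ran from -0.09 to 0.35. Its part in the Apob result was not tested. Apoa1 and Apoa2, the main proteins of high-density lipoprotein, had log2 fold changes of 0.21 and 0.04, and Apoh, which binds phospholipids, of 0.03.

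Most serpins are protease inhibitors that change shape as they trap their target. Serpina1a, Serpina1b and Serpina1c encode alpha-1-antitrypsin copies that lie on the minus strand of chromosome 12, between 103728156 and 103904950. Their annotated main transcripts were 95.8% to 98.5% identical over the aligned bases, so the counting could have moved reads between them, and their separate values are uncertain. Summed, the 3 had 1241, 934, 880 and 1565 CPM in the knockouts and 1009, 750 and 1256 CPM in the controls, with the groups overlapping. That sum leaves out Serpina1d and Serpina1e, which are not members and are described below. Serpina6, which carries corticosteroids, had 595, 639, 515 and 1027 CPM in the knockouts and 690, 543 and 813 CPM in the controls. Here knockout replicate 1 lay below 2 of the 3 controls, and the log2 fold change was 0.03 (SE 0.23). Serpinc1, antithrombin, had 101, 112, 97.9 and 165 CPM in the knockouts and 119, 90.8 and 152 CPM in the controls, with a log2 fold change of -0.02 (SE 0.21). Serpinf2, the inhibitor of plasmin, had a log2 fold change of 0.32 (SE 0.26).

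Fibrinogen, the precursor of the fibrin clot, is built from alpha, beta and gamma chains encoded by the neighbouring genes Fga, Fgb and Fgg on chromosome 3. Fgb (83042246 to 83049863, minus strand) had 408, 194, 178 and 328 CPM in the knockouts and 203, 141 and 253 CPM in the controls. Fga (83026153 to 83033627, plus strand) had 348, 246, 231 and 395 CPM in the knockouts and 271, 187 and 355 CPM in the controls. Knockout replicate 1 was the highest library for Fgb and the third for Fga. Fgg had 193, 155, 140 and 248 CPM in the knockouts and 164, 118 and 208 CPM in the controls. The log2 fold changes were 0.48 for Fgb (SE 0.30), 0.17 for Fga (SE 0.24) and 0.17 for Fgg (SE 0.22). F2, prothrombin, Plg, plasminogen, and Kng1, kininogen, had log2 fold changes of 0.24, 0.19 and 0.10, and no gene of clotting or its reversal among the members was called.

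The matrix and inhibitor proteins were 7 members, with log2 fold changes from -0.24 to 0.26. Itih1 to Itih4 encode heavy chains of the inter-alpha-trypsin inhibitor family. Itih4 had 64.9, 36.2, 34.4 and 56.6 CPM in the knockouts and 44.3, 30.1 and 95.9 CPM in the controls. Control replicate 3 was the highest there, as it was for Fetub, whereas for Itih1, Itih2 and Itih3 knockout replicate 4 was (79.6, 673 and 320 CPM). Without control replicate 3, the Itih4 log2 fold change of -0.24 (SE 0.37) became 0.37. Ahsg, fetuin-A, which binds calcium phosphate, had 616, 487, 569 and 945 CPM in the knockouts and 545, 395 and 765 CPM in the controls. Its relative Fetub had 17, 23, 21 and 27 counts in the knockouts and 27, 11 and 34 counts in the controls, few enough for the 95% interval of the fold to run from 0.52 to 1.87. Vtn, vitronectin, had a log2 fold change of 0.09.

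Regulators and structural genes of liver cells varied with the secreted proteins from library to library. Hnf4a, a nuclear receptor that drives the hepatocyte programme, had 95.1, 54.2, 42.4 and 89.3 CPM in the knockouts and 57.6, 45.4 and 64.1 CPM in the controls. Foxa3, a forkhead factor, had 17.3, 8.99, 7.10 and 15.2 CPM in the knockouts and 9.77, 6.17 and 12.9 CPM in the controls. For both, knockout replicates 1 and 4 stood above every control. Krt8 and Krt18, which form the keratin filament pair of simple epithelia, had log2 fold changes of 0.28 (SE 0.21) and 0.32 (SE 0.22).

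Most members shared the highest and the lowest library. Knockout replicate 4 was the highest of the 7 libraries in 25 of the 36 tested members, knockout replicate 1 in 9 and control replicate 3 in 2. Control replicate 2 was the lowest in 31 and knockout replicate 3 in 5. The place of knockout replicate 1 differed between members: its CPM had rank 1 in 9 members, rank 2 in 9, rank 3 in 10 and a lower place in 8.

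**Figure D3:**
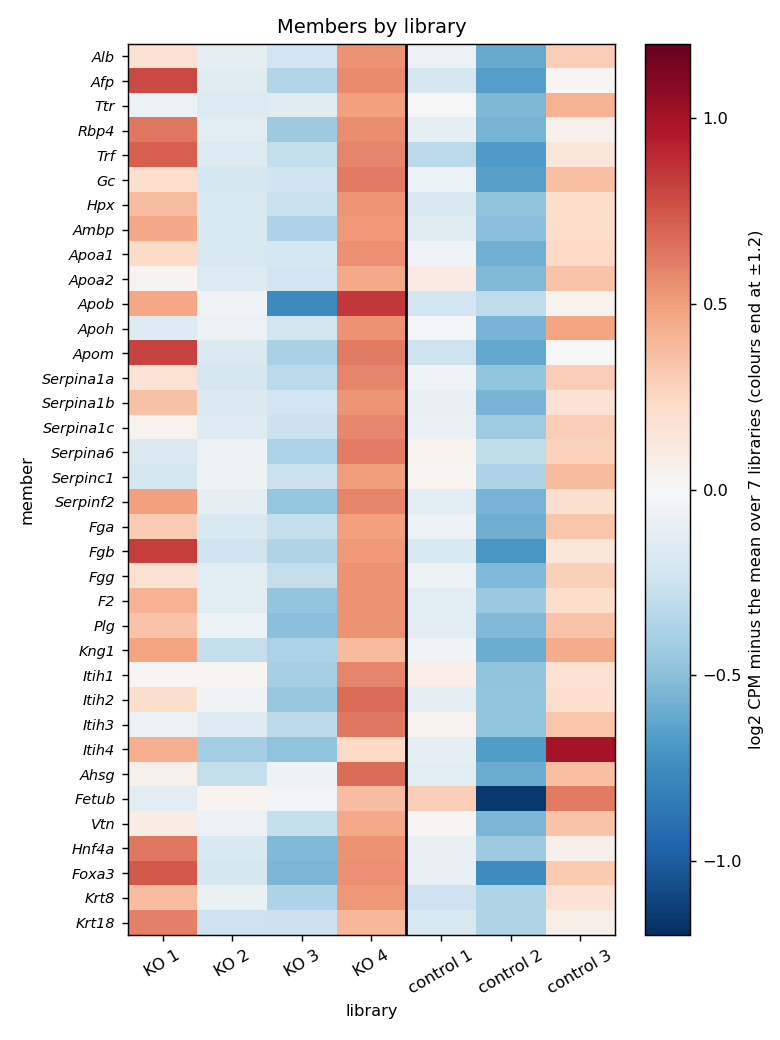
Log2 CPM of the 36 tested members (rows) minus each gene's mean over the 7 libraries, for the knockout libraries (left) and the controls (right). Knockout replicate 4 is high and control replicate 2 low for most members, and knockout replicate 1 varies from gene to gene.

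The make-up of the hepatocyte counts set knockout replicate 1 apart. Their amount there, 2.78% of all counts, lay within the range of the other libraries. As a share of the member counts, 8 of the 36 members were above the range of the other 6 libraries there, 19 were below it and 9 were within. In the other libraries, between 0 and 9 members were above the range of the rest and between 0 and 7 below it, with control replicates 2 and 3 having 9 above each. Such shares have a fixed sum, and Afp and Trf together held 42.5% of it in knockout replicate 1 and 30.2% to 33.8% in the other libraries, which lowers the share of every other member there. Taken relative to the median log2 CPM of the tested members in each library, a scale chosen after the data were seen that does not have this property, 11 members were above, 16 below and 9 within in knockout replicate 1. Fga, Hpx and Serpina1b were below by share and within on that scale. On it knockout replicate 3 had 13 above and 3 below, and no other library had more than 10 outside. By share, those above were Fgb (1.39 times the mean of the other 6), Apom (1.36), Afp (1.34), Foxa3 (1.28), Trf (1.27), Rbp4 (1.18), Hnf4a (1.18) and Serpinf2 (1.06). Furthest below were Serpinc1 (0.600), Serpina6 (0.617), Apoh (0.628), Ttr (0.673), Itih3 (0.674) and Itih1 (0.718). The SD of the members' log2 deviations from the mean of the other libraries was 0.342 in knockout replicate 1 and between 0.0971 and 0.207 in the rest. These shares were compared after they had been seen, and carry no test. Over the 35 members with at least 5 CPM, the deviations were set against transcript length and GC content by Spearman correlation. These were 0.16 for length and 0.22 for GC content in knockout replicate 1. In knockout replicate 3 they were -0.51 and -0.14. The part of length and GC content in either make-up was not tested.

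**Figure D4:**
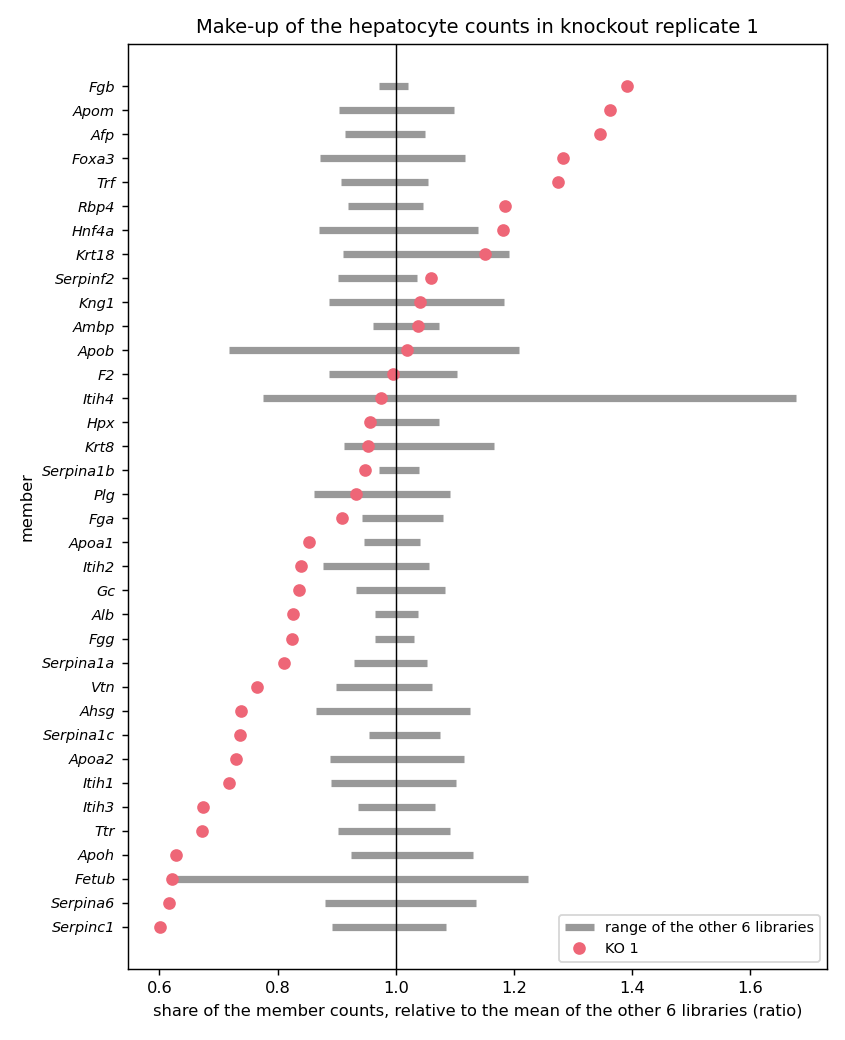
Each tested member's share of the summed hepatocyte counts in knockout replicate 1 (KO 1, points), divided by its mean share in the other 6 libraries, with the range of those 6 (grey bars). Points run from 0.600 (Serpinc1) to 1.39 (Fgb), and 27 of the 36 lie outside the bar.

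Ratios of 2 members within a library do not depend on how much hepatocyte RNA the library holds, and 2 such ratios were compared between the groups. The Afp count was 1.22, 0.790, 0.743 and 0.818 times the Alb count in the knockouts, against 0.734, 0.773 and 0.663 times in the controls. Afp exceeded Alb only in knockout replicate 1, and knockout replicate 3 lay within the controls. The log2 ratio was higher by 0.28 in the knockouts (two-sided exact permutation test over 35 assignments of libraries to groups, p = 0.2, adjusted over the 2 ratios p = 0.2). The Fgb count was 1.17, 0.789, 0.771 and 0.830 times the Fga count in the knockouts, against 0.749, 0.753 and 0.714 times in the controls. All 4 knockouts lay above all 3 controls, with knockout replicate 1 far above the other 3, and the log2 difference of 0.25 had an exact permutation p = 0.143 (adjusted p = 0.2). The smallest p this design allows is 0.0286. The Fgg count was 0.556, 0.631, 0.605 and 0.628 times the Fga count in the knockouts, against 0.605, 0.630 and 0.586 times in the controls. For that pair the groups overlapped, and knockout replicate 1 was the lowest library. Without knockout replicate 1 the log2 differences were 0.12 for Afp over Alb and 0.11 for Fgb over Fga, with exact permutation p of 0.2 and 0.1, where 0.1 is the smallest that 3 against 3 libraries allow.

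**Figure D5:**
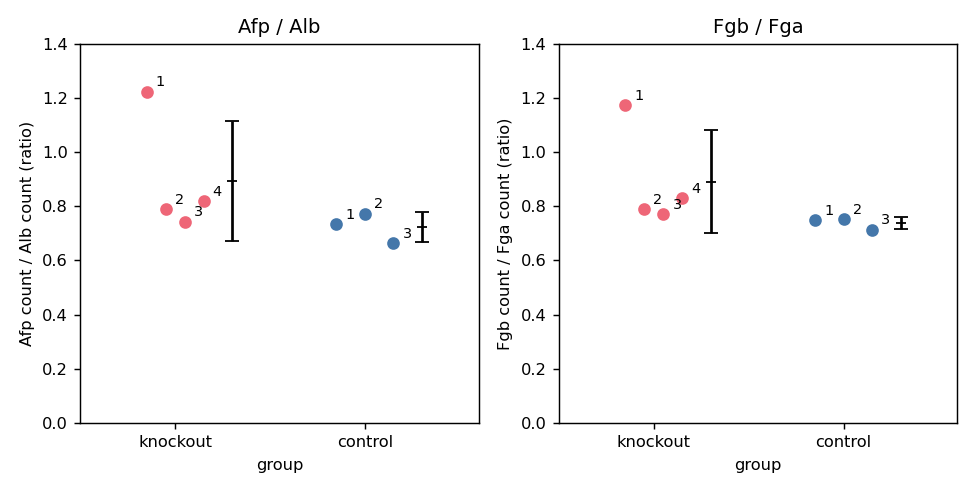
Ratio of the Afp count to the Alb count (left panel) and of the Fgb count to the Fga count (right panel) in each library, numbered by replicate; bars beside the points are mean ± SD (n = 4 knockout, n = 3 control). Knockout replicate 1, at 1.22 and 1.17, lies apart from the other 6 libraries, which run from 0.663 to 0.818 and from 0.714 to 0.830.

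Further hepatocyte genes, taken from 4 lists that do not overlap the members, gave 1 call among the 85 tested of 103 listed. In the list of other secreted proteins 33 of 39 were tested, 18 had a log2 fold change above 0 and 1 was called lower (0.545% of all genes), with a median of 0.09. DESeq2 called the same gene and no other in this list. An unadjusted edgeR p under 0.05 was found for 5 of the 33, 1 higher and 4 lower (10.9% of all genes), and 4 had groups that did not overlap (11.2%). Besides the called gene these 4 were Igfbp1, F5 and Hrg, which were chosen after their values were seen. Their log2 fold changes were 1.15, -0.73 and -1.29 (edgeR, adjusted p of 0.297, 0.311 and 0.339). The genes with the highest levels in it were Serpina1e, Pzp and Serpina1d, with log2 fold changes of -0.10, 0.40 and 0.16. Serpina1e and Serpina1d belong to the same family as Serpina1a to Serpina1c. Their sequence identity was not computed here, and their separate values are uncertain too. Of 18 hepatocyte transcription factors 17 were tested, 15 were above 0 and 0 were called, with a median of 0.22. Cebpa, Hhex and Prox1 had the highest levels, with log2 fold changes of -0.11, -0.29 and 0.40; Cebpa and Hhex are also expressed in blood cells. DESeq2 called 0 of those transcription factors (2.68% of all genes), and 1 had an unadjusted edgeR p under 0.05 (10.9%). Groups that did not overlap were found for 0 of them (11.2% of all genes). Over all genes tested, 52.4% had a log2 fold change above 0 and 0.559% were called by edgeR.

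Hp, haptoglobin, was the called gene. It encodes the plasma protein that binds free haemoglobin, which the liver makes and which neutrophils also store. Hp had 24.8, 35.3, 61.9 and 32.4 CPM in the knockouts and 84.5, 140 and 140 CPM in the controls. Every knockout lay below every control, and the order of libraries was not that of the members: knockout replicates 1 and 4, high for most members, were the lowest and second lowest here. The log2 fold change was -1.65 (SE 0.29; edgeR, adjusted p = 0.044), and the authors' deposited table gives -1.65 (adjusted p = 0.0037). The call was lost without control replicate 2 (adjusted p = 0.142) or 3 (0.189) and without knockout replicate 1 (0.115), 2 (0.151) or 4 (0.132), and with genes kept at a mean of at least 1 CPM (0.055). Beside it, 14 tested macrophage genes of 16 listed had log2 fold changes below 0, with a median of -0.97. Of those 14, edgeR called 1 lower (0.545% of all genes) and DESeq2 called 8 (2.68% of all genes in either direction), 10 had an unadjusted edgeR p under 0.05 (10.9%) and 9 had groups that did not overlap (11.2%). The whole macrophage list took 0.0171% to 0.0280% of counts in the knockouts and 0.0355% to 0.0499% in the controls. Their part in the Hp result was not tested.

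Enzymes and transporters of hepatocyte metabolism, many of which are switched on late in gestation or after birth, were 30, of which 24 were tested, 9 were above 0 and 0 were called. The median was -0.04, and 1 had an unadjusted edgeR p under 0.05 (10.9% of all genes). Groups that did not overlap were found for 0 (11.2% of all genes), and DESeq2 called 0 (2.68%). Over all genes tested, 52.4% were above 0 and 0.559% were called by edgeR. Ass1 and Asl, urea cycle enzymes also used by other cells, had log2 fold changes of 0.17 and 0.14. As a percent of the member counts, the enzyme list came to 1.47, 2.54, 2.61 and 2.38 in the knockouts and 2.71, 2.98 and 2.58 in the controls, lowest in knockout replicate 1. Hpd, of tyrosine breakdown, and Cps1, of the urea cycle, chosen after their values were seen, had 4.04 and 0.546 CPM in knockout replicate 1. In the other 6 libraries Hpd lay between 13.5 and 26.9 CPM and Cps1 between 3.35 and 10.3 CPM. The 6 enzymes not tested had at most 63 counts over all libraries.

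Genes of hepatoblasts, the fetal precursors, and of bile duct epithelium were 16, of which 11 were tested, 10 were above 0 and 0 were called, with a median of 0.36. DESeq2 called 0 of them (2.68% of all genes) and 2 had an unadjusted edgeR p under 0.05, 1 in each direction (10.9%). Groups that did not overlap were found for 0 (11.2% of all genes). Over all genes tested, 52.4% were above 0 and 0.559% were called by edgeR. The imprinted H19 and Igf2 and the Notch family ligand Dlk1 had the highest levels, with log2 fold changes of 0.22, 0.11 and 0.36. Dlk1 had 586, 389, 314 and 651 CPM in the knockouts and 383, 303 and 444 CPM in the controls, so knockout replicates 1 and 4 were above every control, as for Afp. The list took 0.496%, 0.407%, 0.335% and 0.630% of counts in the knockouts and 0.399%, 0.327% and 0.490% in the controls, in the same order of libraries as the members. The bile duct markers Krt19 and Sox9 were not tested, and no gene of this list that failed the filter had more than 56 counts over all libraries.

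Other cell types did not follow that order. The 16 endothelial genes took 0.0240% to 0.0323% of counts in the knockouts and 0.0252% to 0.0410% in the controls, with control replicate 2, the lowest for hepatocyte genes, the highest. Stromal and stellate cell genes took 0.0123% to 0.0215% in the knockouts, highest in replicate 1, and 0.0109% to 0.0156% in the controls. The 4 adult haemoglobin genes took 0.319%, 0.329%, 0.399% and 0.267% in the knockouts and 0.212%, 0.0978% and 0.231% in the controls, above every control in each knockout. With haemoglobin left out of the library totals, the log2 ratio of the mean member shares was 0.31, as with it kept. Any other part of these cell types in the hepatocyte shares was not tested.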

How the data were processed

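RNA from magnetically selected lineage-negative cells was extracted on columns and made into polyA libraries with a stranded kit, per the labels' protocols. The authors deposited raw counts per gene symbol. Per the submitters' processing notes, HISAT2 was the aligner, mm10 the genome build and featureCounts the counter. Their versions, the annotation, whether strand was used and how multi-mapping reads were handled were not given in the sources used here. The authors' deposited DESeq2 table gives, for each gene, a log2 fold change, its error, a p-value, a test score and a signal, which is the count divided by 1 constant per library, per the file headers and values.

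Genes kept by filterByExpr (14679 of 35976) went, after TMM scaling, into edgeR's quasi-likelihood F test (edgeR 4.0.16, R 4.3.3) on the group alone, Benjamini-Hochberg over all genes, called at an adjusted p under 0.05 with no minimum fold. Log2 CPM used a prior count of 2. Intervals of fold changes are 95% intervals from the F statistic. The script was tested on simulated data. Transcript length and GC content came from the main transcript of each gene in GENCODE M21, positions and promoters from RefSeq (GRCm38.p6). TPM were computed from the counts and those lengths, without a correction for fragment size. Exact permutation tests used all 35 assignments of the libraries to groups. Alternatives were other scalings and filters, DESeq2 1.42.0, limma-voom (limma 3.58.1), a robust fit, a block on replicate number, 1 surrogate variable (sva 3.50.0) and leaving out each library.

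The members and lists were chosen with earlier results of these data known, and no set test was run. Named genes are all members, Brd9, and, of each further hepatocyte list, the 3 with the highest mean CPM and any called gene. A gene that this rule takes in is not reported here. Mitochondrial genes of the RNA quality list were found under other symbols, and Ahsp of the erythroid list had no row. In pairs of libraries of 1 group, a chi-square statistic per degree of freedom was between 9.16 and 46.3, so no 2 libraries agreed within sampling noise. The RNA quality list took 3.10% to 3.77% of counts in the knockouts and 3.23% to 3.75% in the controls, and the erythroid list 0.604% to 0.769% and 0.394% to 0.641%.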

Additional observations from a re-analysis of the deposited data

Results flagged for a closer look

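Groups of 4 libraries were checked for a library far from the rest, which left the 3 controls out, over 66 measures; chance flags about 5% of such groups, and 5 were flagged. The gap between the farthest library and its neighbour, divided by the range of the knockouts, was 0.8424 for the ratio of Afp to Alb and 0.8555 for Fgb to Fga, where knockout replicate 1 was high. It was 0.8413 for Apoh and 0.8765 for Ttr, where knockout replicate 4 was high, and 0.9113 for Ass1, also with knockout replicate 4 high at 88.9 CPM. The critical value is 0.829. No explanation of these was tested.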

How the results depend on the processing

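Over 10 alternatives with all libraries and over leaving out each library, 0 members were called, and the median log2 fold change of the members ran from 0.043 to 0.21 and from 6.6e-04 to 0.44. The number of genes called over all genes, 82, became 228 with no filter on low counts, 393 with DESeq2 and 136 with 1 surrogate variable, and ran from 20 to 120 when single libraries were left out. The 1 call in the further hepatocyte lists, Hp, became 0 at a mean of at least 1 CPM and ran from 0 to 1 when single libraries were left out; its log2 fold change ran from -1.98 to -1.49 there. In the replicate block, knockout replicate 4 had no control of its number, so it did not bear on the fitted group difference. Leaving that library out of the main fit gave a median of 0.028 over the members. Uncalled genes changed sign as follows, and the cause was not tested. With limma-voom Serpina6 was at -0.0077 and Fetub at 0.16. With the replicate block, Apoa2 was at -0.088, Apoh at -0.11, Ttr at -0.086, Serpina1a at -0.048, Serpina1c at -0.053, Serpina6 at -0.21, Itih1 at -0.047, Itih3 at -0.15, Vtn at -0.024 and Igf2 at -0.075. With 1 surrogate variable, Apoa2 was at -0.065, Apoh at -0.052, Ttr at -0.036, Serpina1a at -0.010, Serpina6 at -0.088, Plg at -0.014, Itih3 at -0.056, Kng1 at -0.096, Vtn at -0.024 and Igf2 at -0.060.

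When single libraries were left out, log2 fold changes ran from -0.17 to 0.23 for Apoa2, -0.19 to 0.33 for Apoh, -0.17 to 0.30 for Ttr, -0.069 to 0.34 for Serpina1a, -0.078 to 0.33 for Serpina1c, -0.23 to 0.17 for Serpina6, -0.21 to 0.19 for Serpinc1, -0.037 to 0.41 for Fga, -0.014 to 0.39 for Fgg, -0.0014 to 0.44 for Plg, -0.027 to 0.48 for Ahsg, -0.39 to 0.34 for Fetub, -0.061 to 0.28 for Itih1, -0.18 to 0.26 for Itih3, -0.55 to 0.37 for Itih4, -0.13 to 0.39 for Kng1, -0.11 to 0.31 for Vtn, -0.024 to 0.47 for Gc, -0.36 to 0.29 for Serpina1e, -0.014 to 0.34 for Serpina1d and -0.079 to 0.29 for Igf2. The replicate numbers are not stated to pair libraries: the deviations of same-numbered libraries correlated at 0.17, -0.022 and -0.0052. The block took the members' median to 0.043 and called 0 of them. The paired differences were 0.31 for the log2 ratio of Afp to Alb and 0.28 for Fgb to Fga, each with an exact p = 0.25, the smallest 3 pairs allow. With 3 and 4 libraries, differences of up to about the interval widths given for each member were not detectable.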
